A study of Homo sapiens with 8 samples.

Results

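The proteasome genes are described here across all 8 arrays of an experiment in KBM7 cells, a near-haploid chronic myeloid leukaemia line. They were taken by symbol, as every gene named PSMA, PSMB, PSMC, PSMD, PSME, PSMF or PSMG followed by a number. The rule gave 44 of the 18132 genes with a probe set of their own on Affymetrix PrimeView arrays, and 41 of the 11529 genes bright enough to be compared (highest log2 intensity over the arrays of at least 6). They fall into 5 immunoproteasome genes (PSMB8, PSMB9, PSMB10, PSME1 and PSME2), 27 genes of the constitutive 20S core and 19S cap, and 9 genes for other activators, an inhibitor and assembly chaperones. The genes were grouped by known function, though the groups were chosen with earlier results of these data known. PSMA6 shares its probe set with PRORP and is given apart, and array values of PSMC5, PSMD7 and PSMD13 are not analysed here.

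The cells were wild type (WT), a gene-trap clone mutant for JAK2, the kinase that carries the signal of the interferon-gamma receptor, or a gene-trap clone mutant for TNFRSF1A, through which cells sense TNF-alpha. The first experiment compared WT with the JAK2 mutant, each with no cytokine and after 6 h of IFN-gamma at 100 ng/ml, and the other compared WT with the TNFRSF1A mutant, each with no cytokine and after 6 h of TNF-alpha at 10 ng/ml, all in IMDM with 10% serum. Each of the 7 conditions had 1 array, except that unstimulated WT had 2: replicate 1 belongs to the IFN-gamma experiment and replicate 2 to the other. Each mutant is 1 clone, so an effect of the trapped gene and any other difference of that clone cannot be told apart. With 1 array for every condition but unstimulated WT, the differences have no replicate check, and calls were made on size alone, from 2-fold on. A limma fit that takes its spread from the WT pair alone served only as an alternative. The only spread between arrays of 1 condition is that of the unstimulated WT replicates, whose log2 differences had an SD over genes of 0.38. Nothing in the labels says whether those samples came from separate cultures. They belong to different experiments, so this spread also holds any difference between the experiments. Between them 518 genes were 1.5-fold higher and 771 lower, against 159 and 16 with IFN-gamma in WT and 19 and 25 in the JAK2 mutant. A difference inside 0.38 is thus not shown to be absent.

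The proteasome is the protease that degrades ubiquitin-tagged proteins and makes most of the peptides that MHC class I molecules carry to the cell surface. Its 20S core is a barrel of alpha and beta rings, in which PSMB5, PSMB6 and PSMB7 do the cutting, and the 19S cap recognises, unfolds and feeds in the substrate. In cells given interferon-gamma the inducible subunits PSMB8, PSMB9 and PSMB10 take the places of PSMB5, PSMB6 and PSMB7 in newly built cores, and PSME1 and PSME2 form the PA28 activator that opens the core's gate. Interferon-gamma acts through JAK1, JAK2 and STAT factors, which bind the GAS element, and through IRF1 and its relatives, which bind the interferon-stimulated response element, ISRE.

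The promoter sequences of the inducible genes are shown first because they set the 5 genes beside each other on a property that the arrays did not measure. In RefSeq windows of GRCh38.p14, from 250 bases before to 50 bases after each start, the ISRE pattern GAAANNGAAA was searched on both strands. This pattern and those below were chosen with earlier results of these data known. It was found for 4 of the 5 immunoproteasome genes (4 of their 6 windows) and for 2 of 26 constitutive genes, PSMA4 and PSMB4 (6.25% of their 32 windows), against 3.57% of all 35116 windows. The 26 are the constitutive genes with a window and include PSMC5, so they are not the set compared on the arrays. The matches of the 4 genes are printed on the strand of the gene with the matched bases in capitals. They are joined by the match of TAP1, the peptide transporter gene that lies head to head with PSMB9.
PSMB8, chr6:32844032-32844061, minus strand: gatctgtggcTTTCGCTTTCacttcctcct
PSMB10, chr16:67936852-67936881, minus strand: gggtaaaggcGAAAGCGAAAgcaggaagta
PSME1, chr14:24136189-24136218, plus strand: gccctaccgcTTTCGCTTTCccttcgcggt
PSME2, chr14:24146619-24146648, minus strand: cctggggagtGAAAGCGAAAgcccgggcga
TAP1, chr6:32853816-32853845, minus strand: cggccgcTTTCGATTTCGCTTTCccctaaa

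The match lay close to the start in all 4 genes, from base -4 to 6 in PSMB8, -21 to -12 in PSMB10, 6 to 15 in PSME1 and -28 to -19 in PSME2, counted from the start as base 1. PSMB9 had no ISRE match in its own window, whose upstream 250 bases are printed because PSMB9 is the member that moved most with IFN-gamma. The capitals there mark a match to TGACNNNGC, the antioxidant response element (ARE) pattern, on the opposite strand.
PSMB9, chr6:32853942-32854191, plus strand: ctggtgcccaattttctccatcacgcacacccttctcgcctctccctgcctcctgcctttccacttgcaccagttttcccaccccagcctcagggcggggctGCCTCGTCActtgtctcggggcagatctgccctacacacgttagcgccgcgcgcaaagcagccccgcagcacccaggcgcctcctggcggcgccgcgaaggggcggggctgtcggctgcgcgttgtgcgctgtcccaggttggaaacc
The starts of PSMB9 and TAP1 are 487 bases apart on chromosome 6, and the TAP1 run of 2 overlapping ISRE matches lies 354 bases from the PSMB9 start, outside the PSMB9 window. The GAS pattern TTCNNNGAA was found in 1 of the 6 immunoproteasome windows, that of PSMB8, in 15.6% of the constitutive windows and in 7.66% of all windows. The kappaB pattern, bound by the NF-kappaB factors that TNF-alpha sets in motion, was found in 0 of the 6 immunoproteasome windows, in 3.12% of the constitutive windows and in 11.3% of all windows. A kappaB match did lie from base -72 to -63 of TAP1, between the TAP1 and PSMB9 starts and outside the PSMB9 window. Another lay from base 23 to 32 of TAP1. ARE matches were in 3 of the 6 immunoproteasome windows (PSMB9, PSME1 and PSME2), in 21.9% of the constitutive windows and in 13.3% of all windows. A match is a run of letters in a short window and does not show that a factor binds there.

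IFN-gamma in WT cells gave higher values for all 5 immunoproteasome genes, of which PSMB9 passed 2-fold, while the subunits that they replace differed by 0.07 or less on the log2 scale. Of the 41 members 1 was past 2-fold, where 0.607% of all genes compared were, and 4 were at least 1.5-fold higher (PSMB9, PSMB8, PSMB10 and PSME2), where 1.38% of all genes were. The median log2 difference was 0.81 over the 5 immunoproteasome genes, -0.01 over the 27 constitutive genes and -0.02 over all genes compared.

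PSMB9, the inducible counterpart of PSMB6, had an intensity of 1215 in unstimulated WT cells and 2941 with IFN-gamma, and 652 and 791 in the JAK2 mutant without and with it. In the TNF-alpha experiment it had 1297 in WT, 1223 in WT with TNF-alpha, 1042 in the TNFRSF1A mutant and 1000 in that mutant with TNF-alpha. The stimulated WT array was the highest of the 8 and both JAK2 mutant arrays were the lowest. PSMB9 rose 2.42-fold with IFN-gamma in WT (log2 difference 1.28) and differed by 0.28 in the JAK2 mutant. With IFN-gamma the mutant had a value below that of WT cells that had received none.

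PSMB8, which takes the place of PSMB5, had 2899 in unstimulated WT cells, 5239 with IFN-gamma, and 2368 and 2455 in the JAK2 mutant without and with it. Its 4 values in the TNF-alpha experiment, in the same order of genotype and cytokine, were 2896, 2795, 2560 and 2479. The WT array with IFN-gamma stood alone, 1.81-fold over its control (log2 difference 0.85), and the JAK2 mutant differed by 0.05 between its arrays. PSMB10, which takes the place of PSMB7, had 1571, 2759, 1373 and 1416 in the IFN-gamma experiment and 1341, 1391, 1311 and 1309 in the TNF-alpha experiment. It was 1.76-fold higher with IFN-gamma in WT (log2 difference 0.81), and its other 7 arrays lay between 1309 and 1571.

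The PA28 genes differed from each other. PSME2, the beta chain, had 2581, 4152, 2800 and 2733 in WT, WT with IFN-gamma, the JAK2 mutant and that mutant with IFN-gamma, a difference of 1.61-fold in WT (log2 0.69) and of -0.04 on the log2 scale in the mutant. PSME1, the alpha chain, had 3491, 4029, 2911 and 2845 in the same arrays, 1.15-fold in WT (log2 0.21). That is inside the spread of 0.38 between WT arrays of different experiments. Both genes lie beside EMC9 on chromosome 14 and both hold an ISRE match near the start, in opposite orientation relative to the gene. Their values in the TNF-alpha experiment were 1600, 1682, 1194 and 1259 for PSME2 and 3478, 3665, 3365 and 3200 for PSME1. So all 4 arrays of that experiment were below all 4 of the IFN-gamma experiment for PSME2, and not for PSME1.

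**Figure D1:**
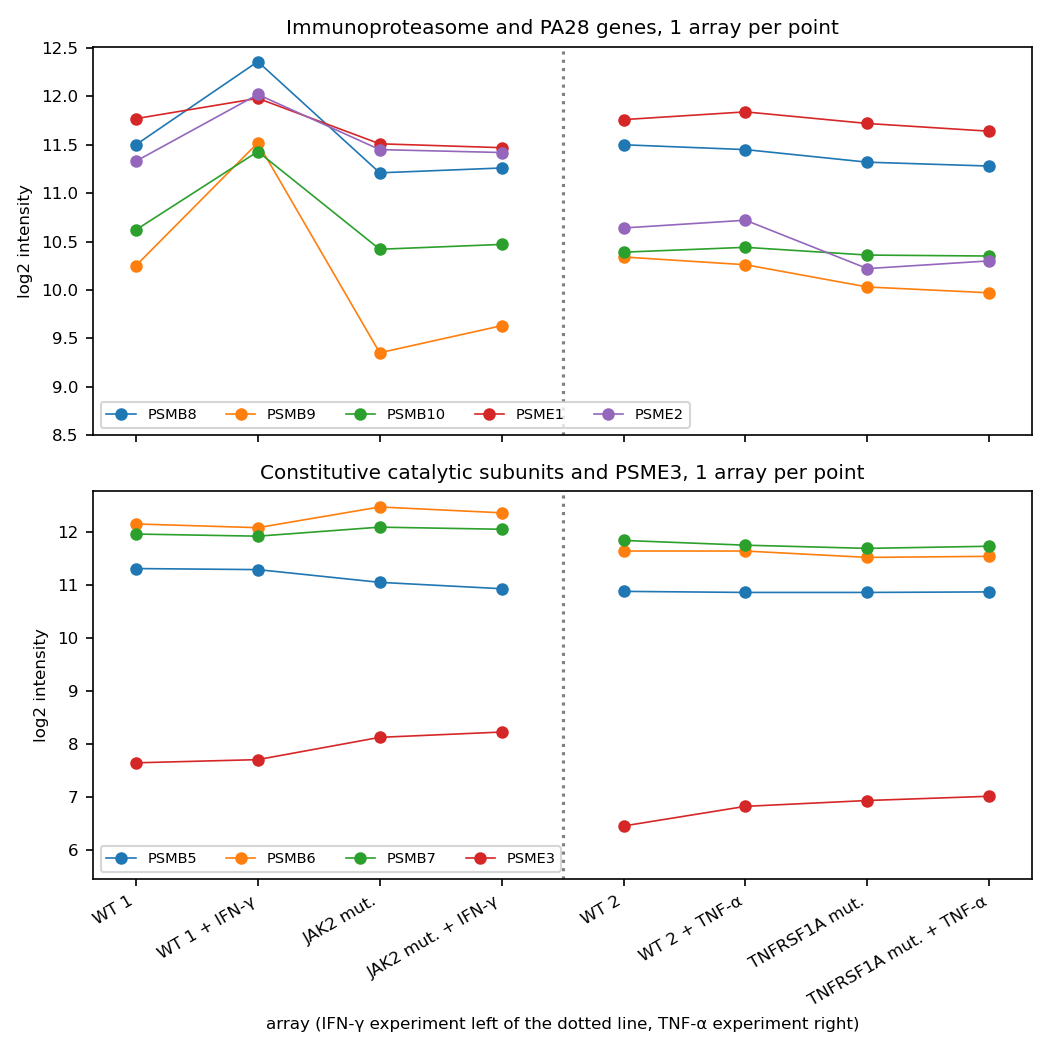
Intensity on the log2 scale (vertical axes) of the 5 immunoproteasome genes (top) and of the 3 constitutive catalytic subunits and PSME3 (bottom) on each of the 8 arrays, 1 array per point, with lines only to guide the eye between arrays of an experiment. PSMB9, PSMB8, PSMB10 and PSME2 peak on the WT array with IFN-gamma, and heights of different genes cannot be compared because each has its own probe set.

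The constitutive catalytic subunits had no such peak. PSMB5 had 2533 in WT and 2505 with IFN-gamma, PSMB6 had 4543 and 4342, and PSMB7 had 3994 and 3886, with log2 differences of -0.02, -0.07 and -0.04. Among the other beta subunits of the core the differences ran from -0.04 (PSMB1) to 0.02 (PSMB4), among the ATPases of the 19S base from -0.06 (PSMC2) to 0.05 (PSMC6), and among the non-ATPases of the base from -0.06 (PSMD4) to -0.01 (PSMD1). In the 19S lid, which holds the deubiquitinating subunit PSMD14, they ran from -0.04 (PSMD11) to 0.15 (PSMD12) on the brightest probe sets. PSME3, which forms the nuclear activator PA28-gamma, differed by 0.07.

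The alpha subunits of the core, which form its outer rings and gate, were the constitutive class with the highest median in this comparison, 0.24. PSMA4 had 11144 in WT and 13473 with IFN-gamma (log2 difference 0.27), and PSMA2, PSMA5, PSMA3 and PSMA1 differed by 0.26, 0.26, 0.23 and 0.12. PSMA7 differed by -0.10. On the brightest probe set of each gene all 6 were inside the spread of 0.38 between WT arrays of different experiments. In the JAK2 mutant the alpha subunits ran from -0.04 to 0.06. POMP, the chaperone that completes newly built cores, differed by 0.25 in WT and -0.04 in the mutant. The several-gene probe set of PSMA6 and PRORP differed by 0.06 in WT and 0.00 in the mutant.

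In the JAK2 mutant IFN-gamma moved no member past 2-fold, where 0.0% of all genes compared were. The median was 0.04 over the immunoproteasome genes, -0.02 over the constitutive genes and 0.00 over all genes. On the brightest probe sets PSMB9 had the largest difference of the 41 members, 0.28, and PSMG3, a chaperone of core assembly, the lowest, -0.16. On the intensity scale of these probe sets the mutant's increase was 8.09% of the WT increase for PSMB9, 3.73% for PSMB8 and 3.57% for PSMB10. PSME1 and PSME2 were lower with IFN-gamma than without. The share depends on the probe set: another bright one of PSMB8 went from 1915 to 3576 in WT. In the mutant it went from 1365 to 1681 (log2 difference 0.30). The WT response minus the mutant response was 1.00 for PSMB9, 0.80 for PSMB8, 0.77 for PSMB10, 0.72 for PSME2 and 0.24 for PSME1 on the log2 scale, with 1 array behind each of the 4 values and no test of the difference.

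**Figure D2:**
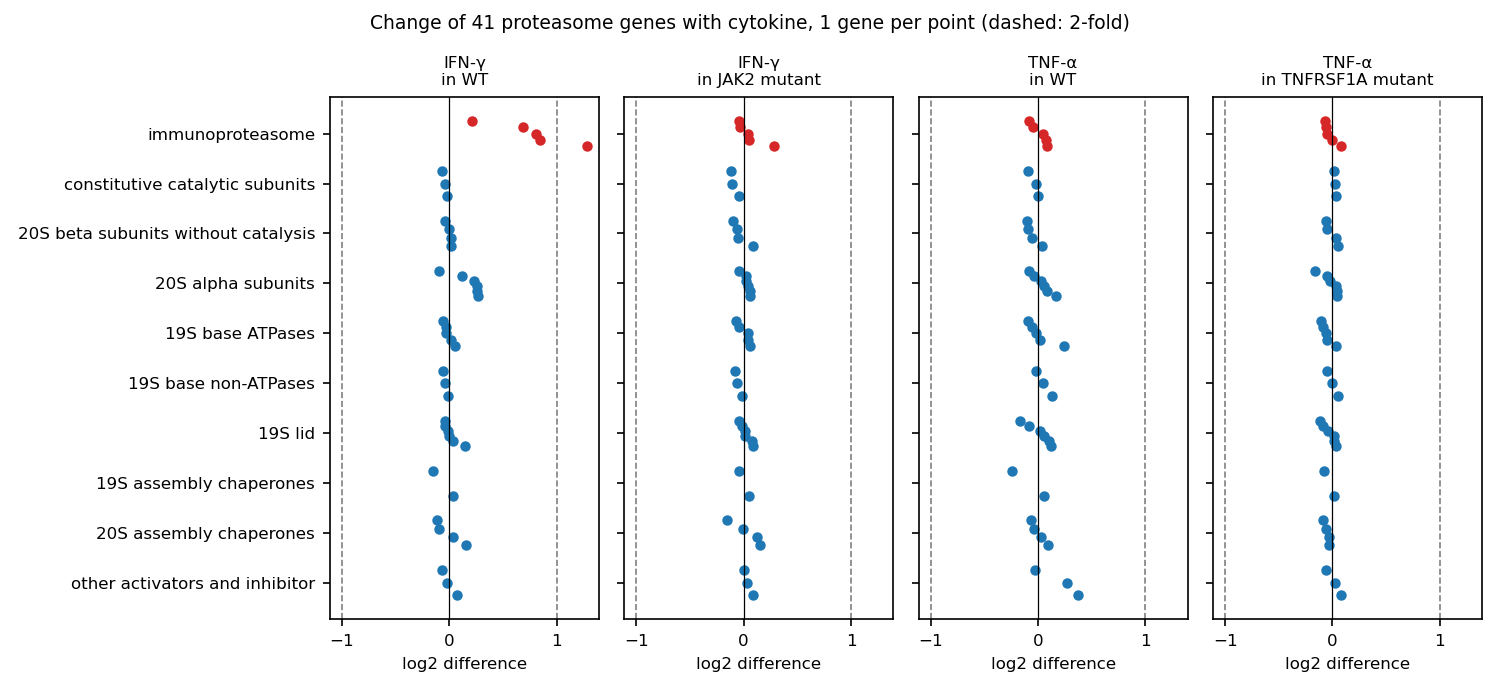
Log2 difference with cytokine (horizontal axes) of the 41 proteasome genes compared, 1 point per gene, grouped by role, in WT and JAK2 mutant cells with IFN-gamma and in WT and TNFRSF1A mutant cells with TNF-alpha. Of all points, that of PSMB9 in WT with IFN-gamma is past the dashed 2-fold line, and the other inducible genes follow it at 0.85 to 0.21.

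Some genes that act with the immunoproteasome moved further. TAP1 and TAP2, the chains of the peptide transporter, whose genes flank PSMB8 in the MHC region, differed by 2.65 and 1.11 on the log2 scale with IFN-gamma in WT, and by 0.42 and -0.01 in the JAK2 mutant. TAP1 had 987 in WT, 6206 with IFN-gamma, 875 in the mutant and 1170 in the mutant with IFN-gamma. Past 2-fold in WT were 0.607% of all genes compared, and the lists that follow were chosen with earlier results of these data known. Of 15 genes of MHC class I peptide supply compared, 6 rose past 2-fold in WT: NLRC5 (2.88), TAP1, ERAP2 (1.58), HLA-E (1.58), TAP2 and TAPBPL (1.04). Of 7 genes of interferon signalling 3 rose past 2-fold, IRF1 (2.87), SOCS1 (1.88) and IRF9 (1.53), and IRF1, a factor that binds the ISRE, differed by 0.59 in the mutant. Of 8 further proteasome proteins and 6 regulators of proteasome genes 0 passed 2-fold, with the ubiquitin receptor ADRM1 at -0.02 and NFE2L1, the factor that raises subunit genes when the proteasome is blocked, at -0.01.

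Different probe sets of a gene were compared next. Beside its brightest probe set, PSMB9 had another bright one, with 774 in WT, 1902 in WT with IFN-gamma, 429 in the JAK2 mutant and 511 in the mutant with IFN-gamma. These differed by 0.28 and 0.25 in the mutant, and both were past 2-fold in WT. Its dimmest probe set reached the level only on the WT array with IFN-gamma, at 85.4, so its difference in WT, 1.38, had to be large and is no support. The 2 of PSMB8 differed by 0.85 to 0.90 in WT and by 0.05 to 0.30 in the mutant, and the 3 of PSMB10 by 0.73 to 0.81 and by 0.02 to 0.04. Those of PSME1 differed by 0.20 to 0.26 in WT, and PSME2 had 1 probe set. The probe sets of PSMB9 parted on the unstimulated mutant: the bright ones differed from WT by -0.90 and -0.85, and the dimmest, at intensities of 32.9 in WT and 36.9 in the mutant, both below the level, by 0.17. Probe sets of other members also parted. PSMA1 had a dim probe set, at 88.0 in WT and 149 with IFN-gamma, that differed by 0.77 in WT and 0.38 in the JAK2 mutant, where its brightest differed by 0.12 and 0.04. A dim probe set of PSMD8, at 154 and 211 in WT, differed by 0.46 in WT and 0.01 in the mutant. The brightest of PSMD8 differed by -0.04 and -0.02.

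**Figure D3:**
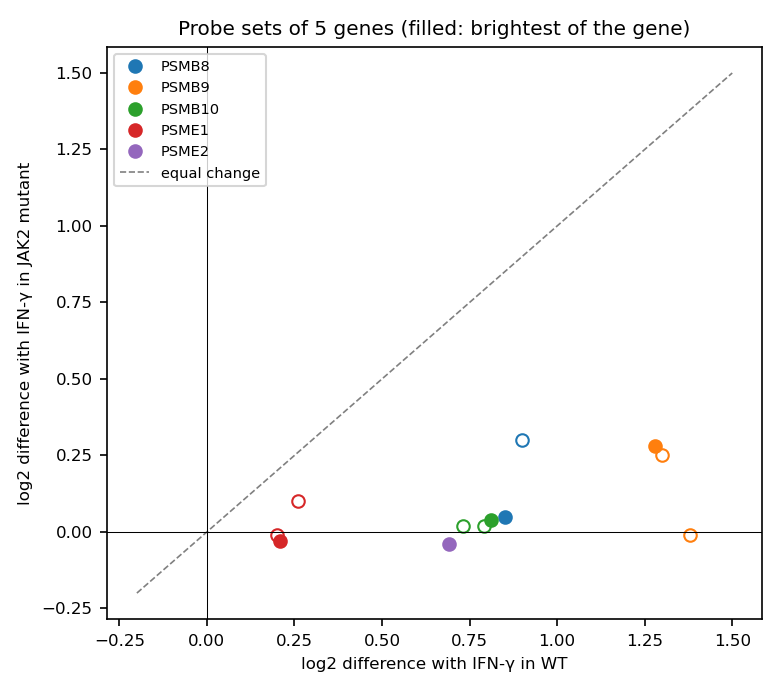
Log2 difference with IFN-gamma in WT (horizontal axis) against that in the JAK2 mutant (vertical axis) for each probe set of the 5 immunoproteasome genes that reached the level, with the brightest of a gene filled. The filled PSMB9 point lies at 1.28 and 0.28. The open PSMB9 point at 1.38 reached the level only on the WT array with IFN-gamma, so the filter itself favours its place on the right.

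TNF-alpha moved no proteasome gene past 2-fold in WT cells, where 0.321% of all genes compared were. The immunoproteasome genes had a median of 0.05 and ran from -0.08 (PSMB9) to 0.08 (PSME1), and the constitutive genes had a median of 0.00 and ran from -0.17 (PSMD8) to 0.24 (PSMC4). The highest member was PSME3, with 88.0 in WT and 114 with TNF-alpha (log2 difference 0.37), though its other probe sets differed by -0.15 and 0.06, and the lowest was PSMD10, the oncoprotein gankyrin and a chaperone of 19S assembly, with 2418 and 2047 (-0.24). On the same arrays 5 of 7 NF-kappaB genes rose past 2-fold, NFKBIA by 2.78, TNFAIP3 by 2.36, NFKB1 by 1.80, RELB by 1.36 and NFKB2 by 1.05 on the log2 scale. None of the 15 peptide supply genes did, and the largest of them was TAP1 at 0.47. In the TNFRSF1A mutant 0 of the 41 members passed 2-fold, where 0.0% of all genes did, and the immunoproteasome genes ran from -0.07 to 0.08.

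Without cytokine the JAK2 mutant had values below its WT control for 4 of the 5 immunoproteasome genes, none of them past 2-fold (2.13% of all genes compared were). PSMB9 was 0.536 times the WT value (log2 difference -0.90), PSMB8 differed by -0.29, PSME1 by -0.26, PSMB10 by -0.19 and PSME2 by 0.12. Of these PSMB9 alone was outside the spread of 0.38. Of the 27 constitutive genes 26 were above WT, 96.3%, where 55.0% of all genes were, with a median of 0.17 against 0.03 over all genes. All of the constitutive differences were inside the spread, up to 0.33 for PSMD3 of the 19S lid. PSMB5, at 2533 in WT and 2114 in the mutant (-0.26), was the exception, while PSMB6 and PSMB7 differed by 0.32 and 0.13. Between the same arrays the summed intensity of the myeloid markers on the array went from 1224 in WT to 1657 in the mutant, that of the T and NK cell markers from 1038 to 752, and the ratio of 3' to 5' actin probe sets, a sign of how whole the RNA was, from 4.41 to 5.74. Their part in these differences was not tested.

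With IFN-gamma on both sides the immunoproteasome genes of the JAK2 mutant were lower than in WT by a median of -0.96, and PSMB9 (-1.89) and PSMB8 (-1.09) were past 2-fold, where 2.67% of all genes were lower by as much. PSMB10 followed at -0.96, PSME2 at -0.60 and PSME1 at -0.50. The constitutive genes had a median of 0.14. On the same pair of arrays HLA-E differed by -2.14, TAP1 by -2.41 and IRF1 by -2.64.

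The TNFRSF1A mutant had values below its WT control for all 5 immunoproteasome genes, with a median of -0.18 and none past 2-fold (0.98% of all genes were). PSME2 had the largest difference, -0.42, and PSMB10 the smallest, -0.03. The constitutive genes had a median of -0.03, 21 of the 27 were below WT (77.8%, against 42.2% of all genes), and they ran from -0.35 (PSMB3) to 0.28 (PSMD3). PSME3 was the highest member at 0.48. With TNF-alpha on both sides PSME2 differed by -0.42 and PSMB9 by -0.29. Between the same unstimulated arrays the summed myeloid markers went from 1217 in WT to 1569 in the mutant, the T and NK cell markers from 1355 to 771 and the actin ratio from 3.27 to 4.51, and their part in these differences was not tested.

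The constitutive genes differed most between the 2 unstimulated WT arrays, which carry the same label apart from their experiment. Replicate 2 was lower than replicate 1 for 26 of the 27 constitutive genes (96.3%, against 55.7% of all genes), with a median of -0.38, against -0.04 over all genes and -0.01 over the immunoproteasome genes. Past 2-fold were 2 members, where 1.99% of all genes were, and at least 1.5-fold lower were 8 members, where 6.69% of all genes were. PSME3 had log2 intensities of 7.65 in replicate 1 and 6.46 in replicate 2 (-1.18). In intensity, PSMD1, a scaffold of the 19S base, had 2006 and 965 (-1.06), and its partner PSMD2 had 2246 and 1134 (-0.99). The others at 1.5-fold were PSME2 (-0.69), PSMA7 (-0.67), PSMA3 (-0.64), PSMD11 (-0.63) and PSMD3 (-0.60). PSMD10 was the highest member, at 0.25, and PSMB8, PSMB9, PSME1, PSMA2, PSMD4 and PSMD8 stayed within 0.09 of equal.

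The same split ran between the arrays of the 2 experiments. PSMD1 had 2006, 1989, 2395 and 2300 on the arrays of the IFN-gamma experiment and 965, 1054, 1095 and 1055 on those of the TNF-alpha experiment, with no overlap. PSMD2 had 2246, 2190, 2719 and 2682 against 1134, 1178, 1112 and 1152. PSMA7 had 4763, 4451, 5797 and 5620 against 2989, 2824, 2908 and 2966. In each of these genes the JAK2 mutant arrays were the highest of the 8. Among the other members at 1.5-fold, PSMA3 had 3844 to 4549 against 2472 to 2804, PSMD11 had 1640 to 1866 against 1093 to 1169, and PSMD3 had 911 to 1150 against 601 to 733. PSME3 had log2 intensities of 7.65, 7.71, 8.13 and 8.23 against 6.46, 6.83, 6.94 and 7.02. On this probe set it was higher in each mutant than in the WT cells of the same experiment. All 3 PSME3 probe sets were higher in the unstimulated JAK2 mutant (0.45 to 0.67), but in the TNFRSF1A mutant they ran from 0.01 to 0.48 without TNF-alpha and from -0.18 to 0.19 with it. The catalytic subunits were separated as well, by smaller steps: PSMB5 had 1952 to 2533 against 1853 to 1883, PSMB6 had 4342 to 5682 against 2934 to 3200, and PSMB7 had 3886 to 4372 against 3307 to 3663. All 4 arrays of the IFN-gamma experiment were above all 4 of the TNF-alpha experiment for 24 of the 27 constitutive genes, 88.9%, and for 32 of the 41 members, 78.0%, where 22.5% of all genes compared had that order. The constitutive genes whose experiments overlapped were PSMA2, PSMD4 and PSMD8. Of the immunoproteasome genes PSME2 was separated in this way, and PSMB8, PSMB9, PSMB10 and PSME1 were not. PSMG2, a chaperone of core assembly, was the member with the opposite order, from 4903 to 5100 against 5579 to 6178, which 17.3% of all genes had.

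Other values moved with the experiment too, and their part in the difference was not tested. The ratio of 3' to 5' probe sets of GAPDH, a sign of how whole the RNA was, ran from 1.20 to 1.27 in the IFN-gamma experiment. In the TNF-alpha experiment it ran from 1.09 to 1.15. That of actin overlapped, from 4.41 to 6.47 and from 3.27 to 5.53. The summed intensity of 4 progenitor markers (CD34, KIT, MYB and GATA2) ran from 5268 to 6096 in the IFN-gamma experiment. In the TNF-alpha experiment it was 8400 in WT, 13084 in WT with TNF-alpha, and 8085 and 7610 in the mutant without and with it. That of the B cell markers, of which 2 of 3 reached the level, ran from 720 to 754 and from 792 to 893. Between the experiments the myeloid markers overlapped (1224 to 1657 and 1186 to 1569), as did the T and NK cell markers (752 to 1038 and 771 to 1439). In bulk RNA fewer cells of a type and less RNA per cell cannot be told apart, and the experiment, its culture and its arrays cannot be told apart from one another either. Median intensities of the arrays were alike, 63.9 to 66.9.

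**Figure D4:**
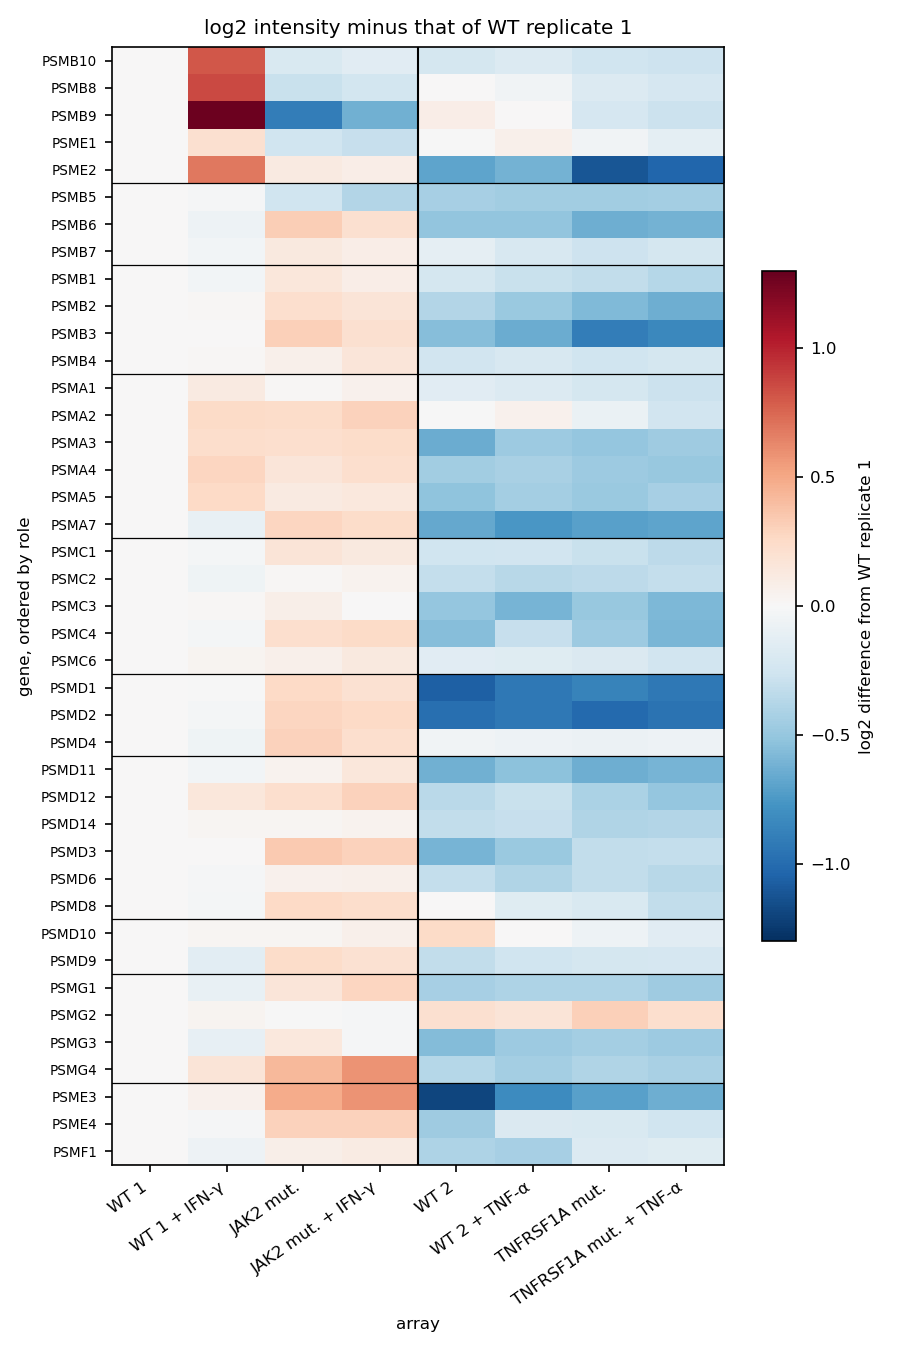
Log2 intensity of the 41 proteasome genes (rows, ordered by role) on each array minus that on the array of WT replicate 1, which is 0 by construction, with red higher and blue lower. The 4 arrays right of the black line, of the TNF-alpha experiment, are lower for most constitutive genes (medians of -0.38 to -0.43), and the red block at top left holds the immunoproteasome genes with IFN-gamma in WT.

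The same values can be read array by array against WT replicate 1. Measured in that way, the constitutive median was -0.01 for WT with IFN-gamma, 0.17 for both JAK2 mutant arrays, -0.39 for WT with TNF-alpha, and -0.41 and -0.43 for the TNFRSF1A mutant without and with TNF-alpha. For the immunoproteasome genes the median on the same arrays was 0.81 for WT with IFN-gamma, -0.26 and -0.24 for the JAK2 mutant, -0.05 for WT with TNF-alpha, and -0.22 and -0.26 for the TNFRSF1A mutant.

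Of the remaining members, PSMG4, a chaperone of core assembly, had 1274, 1427, 1704 and 1893 in the IFN-gamma experiment and 984, 938, 967 and 950 in the TNF-alpha experiment, and was 0.42 above WT in the unstimulated JAK2 mutant. PSME4, the activator PA200, had log2 differences of -0.02 with IFN-gamma and 0.27 with TNF-alpha in WT, and PSMF1, the inhibitor PI31, had -0.07 and -0.03. PSMD9, a chaperone of 19S assembly, had the lowest difference of all members with IFN-gamma in WT, -0.15. Below the level on every array were 3 genes: PSMA8, the testis form of an alpha subunit, at intensities of 11.3 to 13.2, PSMB11, the thymus subunit of cortical epithelium, at 12.3 to 17.1, and PSMD5, a chaperone of 19S assembly, at 24.4 to 35.6.

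Each targeted gene was lowest in its own mutant. JAK2 intensity was 33.8 and 40.1 in its mutant and 70.8 to 113 on the other 6 arrays, and TNFRSF1A was 94.5 and 93.9 in its mutant and 601 to 907 on the others. The myeloid markers MPO, CEBPA, ANPEP and CSF3R reached the level, 4 of 5 on the array, as did all 4 progenitor markers. Of the erythroid markers 2 of 3 did, of the T and NK cell markers 2 of 4 (summed intensity 752 to 1439), and of the fibroblast markers 0 of 4.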

How the data were processed

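RNA of KBM7 cells was hybridised to 1-colour Affymetrix PrimeView arrays, 1 per sample. Per the submitters' processing notes, the authors used RMA (Expression Console 1.1), and the deposited values are each probe set's intensity, found from their range to be linear. RMA makes the arrays' distributions equal, so a shift of most genes together would not be seen. The genome build of the array annotation is not given in the sources used here. Arrays have no counting depth, and their number limits the precision.

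The plan had taken the values to be on a log2 scale already, so log2 of the intensity was taken first (lowest 6.72, no pseudocount). Of 49395 probe sets 44994 had 1 gene, 1832 several and 2569 were not listed. Symbols were updated through gene identifiers to RefSeq (GRCh38.p14). A gene's value is its brightest single-gene probe set by mean over 8 arrays. The 108 single-gene probe sets of the 44 members were read, and genes not reaching log2 6 (intensity 64) on any array were left out. Each comparison is a log2 difference of 2 arrays with a threshold of 2-fold. Genes named are the immunoproteasome genes, PSMB5, PSMB6, PSMB7, PSME3, members past 1.5-fold, the extremes of each comparison and class, and pathway genes past 2-fold with a few fixed ones; PSMG2, PSMD4, PSMD8, PSMG4, PSME4, PSMF1, and other class members were named after their values were seen. Members, lists and motifs were chosen with earlier results of these data known, and the order of the experiments was counted after it had been seen.

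The results were recomputed with thresholds of 1.5-fold and 3-fold, another level filter (none, or log2 8), loess (span 0.3), further quantile normalization, centring on the constitutive genes, other probe set rules, other WT controls, and a limma 3.58.1 fit (R 4.3.3; 1 residual degree of freedom; Benjamini-Hochberg, adjusted p threshold 0.05; tested on simulated data). Applying them to single genes and to mutant against WT with cytokine was added after the data were seen. Other steps used Python 3.11.15, numpy 2.4.6 and pandas 2.3.3.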

Additional observations from a re-analysis of the deposited data

Results flagged for a closer look

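PSME2, the beta chain of the PA28 activator, was picked out because its differences with IFN-gamma had opposite signs in WT and in the JAK2 mutant. The log2 difference was 0.69 in WT and -0.04 in the mutant, with 1 array behind each of the 4 values. The mutant value is far inside the spread between the WT arrays, so it shows no fall. PSME1 had the same signs, at 0.21 and -0.03. The difference between these responses was not tested. A gene was listed only where the larger response was beyond the spread between the 2 WT arrays, 0.38, a limit that was set after the data were seen. That limit is an SD over all genes. PSME2 itself differed by -0.69 between the 2 WT arrays, which belong to different experiments, a difference as large as its response in WT.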

How the results depend on the processing

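Of 77 alternative counts of members past the threshold, 64 were equal to the value reported or within 1.5 times it. Most of these were a count of 0 that stayed 0, which a higher threshold cannot change. The tally therefore does not show that the counts are stable. Of 57 differences between the immunoproteasome and constitutive medians 56 stayed within their spread. That spread, 0.37, is itself the difference between these medians in the WT pair. A reversal was counted only where the reported difference was at least 1 on the log2 scale, which none reached, so none could be counted. In the unstimulated TNFRSF1A mutant the sign did change with the other WT array. Its immunoproteasome and constitutive medians were -0.18 and -0.03 against its own control, and -0.22 and -0.41 against replicate 1. For IFN-gamma in WT the count of 1 became 4 at 1.5-fold, 0 at 3-fold, 0 in the limma fit, 2 with the mean of both WT arrays as control (PSMB9 and PSME2) and 5 with the other WT array (with PSMB10, PSMD1 and PSME3). For the unstimulated JAK2 mutant the count of 0 became 1 at 1.5-fold (PSMB9), 1 with the mean of both WT arrays (PSME3) and 3 with the other WT array (PSME3, PSMD1 and PSMD2), and the median difference of -0.43 became -0.83. For the unstimulated TNFRSF1A mutant the count of 0 became 2 with the other WT array (PSME2 and PSMD2). For the WT pair the count of 2 became 8 at 1.5-fold, 0 at 3-fold, 0 after centring on the constitutive genes and 1 with the mean of all probe sets (PSMD1). The changes with another control follow from the difference between the WT arrays. Where unstimulated WT was the control, the limma fit took the mean of both WT arrays, unlike the main comparisons. With 1 array for every other condition and 1 residual degree of freedom, its calls say little about members or any other genes. Its log2 differences for IFN-gamma in WT were 1.23 for PSMB9, 1.03 for PSME2, 0.93 for PSMB10, 0.85 for PSMB8 and 0.21 for PSME1. In the unstimulated JAK2 mutant PSMB9 differed by -0.95 in that fit. With IFN-gamma on both sides the JAK2 mutant's count of 2 became 3 with loess or further quantile normalization (PSMB10 added) and 1 with the mean of all probe sets (PSMB9). No paired analysis was possible because the groups compared share fewer than 2 replicate numbers, and leaving out a replicate leaves no array of its condition except for unstimulated WT, where the other array as control is that setting. Signal over background limits PSMA8, PSMB11 and PSMD5.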
